A study of Bos taurus with 6 samples.

Results

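The miR-379/410 cluster is the larger of the miRNA clusters in the imprinted DLK1-DIO3 locus, and its miRNAs were followed here in RNA of fetal bovine serum (FBS), the serum of unborn calves used to feed cultured cells. Members were chosen by name alone, as either arm of any of 42 listed hairpin numbers from miR-379 to miR-656. The list is not every hairpin of that span, since miR-382 is not on it. Of 502 miRNA names in the table made on the human genome 53 were members, and of 395 names in the table made on the mouse genome 44 were. The 53 human names came from 33 hairpin numbers, and 52 of them had a miRNA gene of the same number, with or without its letter, in the cattle assembly ARS-UCD2.0, the exception being miR-889-3p.

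All 6 libraries came from FBS, 40 mL of which was spun at 100000 g for 24 h. Small RNA libraries were made from 3 pellets and 3 supernatants. Only the supernatant, 20 mL of it, was concentrated on a 3 kDa filter before lysis. Fraction and this handling thus cannot be told apart. The pellet holds extracellular vesicles (EVs) along with other heavy particles, so it is an enriched fraction and not pure EVs, while the supernatant holds lighter RNA-protein complexes. Values are reads per 1000000 mapped reads (RPM), and thus shares of what mapped to a foreign genome. The 3 serum samples are called batches in one place of the study and aliquots in another, and the labels do not say which pellet and supernatant came from the same sample. The p-values therefore rest on the spread among 3 preparations, part or all of which can be technical.

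In placental mammals the cluster lies on the maternally expressed side of the locus, where a long non-coding transcript is cut into many hairpins. Each hairpin gives a 5p and a 3p arm, of which one is usually kept in an Argonaute protein and the other degraded. The miRNAs are known from placenta, embryo, muscle and brain. In rat neurons the transcription factor Mef2 drives the cluster, and in mice its loss disturbs the metabolism of newborns.

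Depth differed between libraries. One read was taken to be worth the smallest RPM that 6 or more miRNAs of a library had in common, which gave 867426 to 6660802 mapped reads for the pellets (pellet 3 lowest, pellet 1 highest) and 3081111 to 5373233 for the supernatants. One read was thus worth 0.150 RPM in pellet 1, 0.637 RPM in pellet 2 and 1.15 RPM in pellet 3. Pellet 1 stood apart from the other 5 libraries in most of what follows, and the results that rest on it are also given without it.

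The summed level of the members was 3605 RPM in pellet 1, 1195 RPM in pellet 2 and 489 RPM in pellet 3. In the supernatants it was 254, 217 and 242 RPM. No pellet reached down to a supernatant, but the pellets differed more among themselves than the lowest pellet did from the supernatants. The mean was 1763 ± 1634 RPM in pellets and 238 ± 19.0 RPM in supernatants (SD, n = 3 each), a ratio of 7.42, or 3.54 without pellet 1. Serum collects RNA from many tissues. Behind a level in serum, more releasing cells cannot be told apart from more of these miRNAs per cell.

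Of all miRNA reads the members held 2.80%, 1.55% and 0.772% in pellets 1, 2 and 3. In supernatants 1, 2 and 3 they held 0.435%, 0.394% and 0.464%. Most miRNA reads of every library belong to miR-122-5p of the liver and to miR-1246, and a share taken beside them moves with these names. Of the reads left when both were set aside, the members held 19.5% in pellet 1, 9.74% in pellet 2 and 7.23% in pellet 3, against 9.79%, 9.24% and 8.68% in the supernatants. On that base pellet 1 alone lay apart, and the other pellets fell within or below the range of the supernatants.

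**Figure D1:**
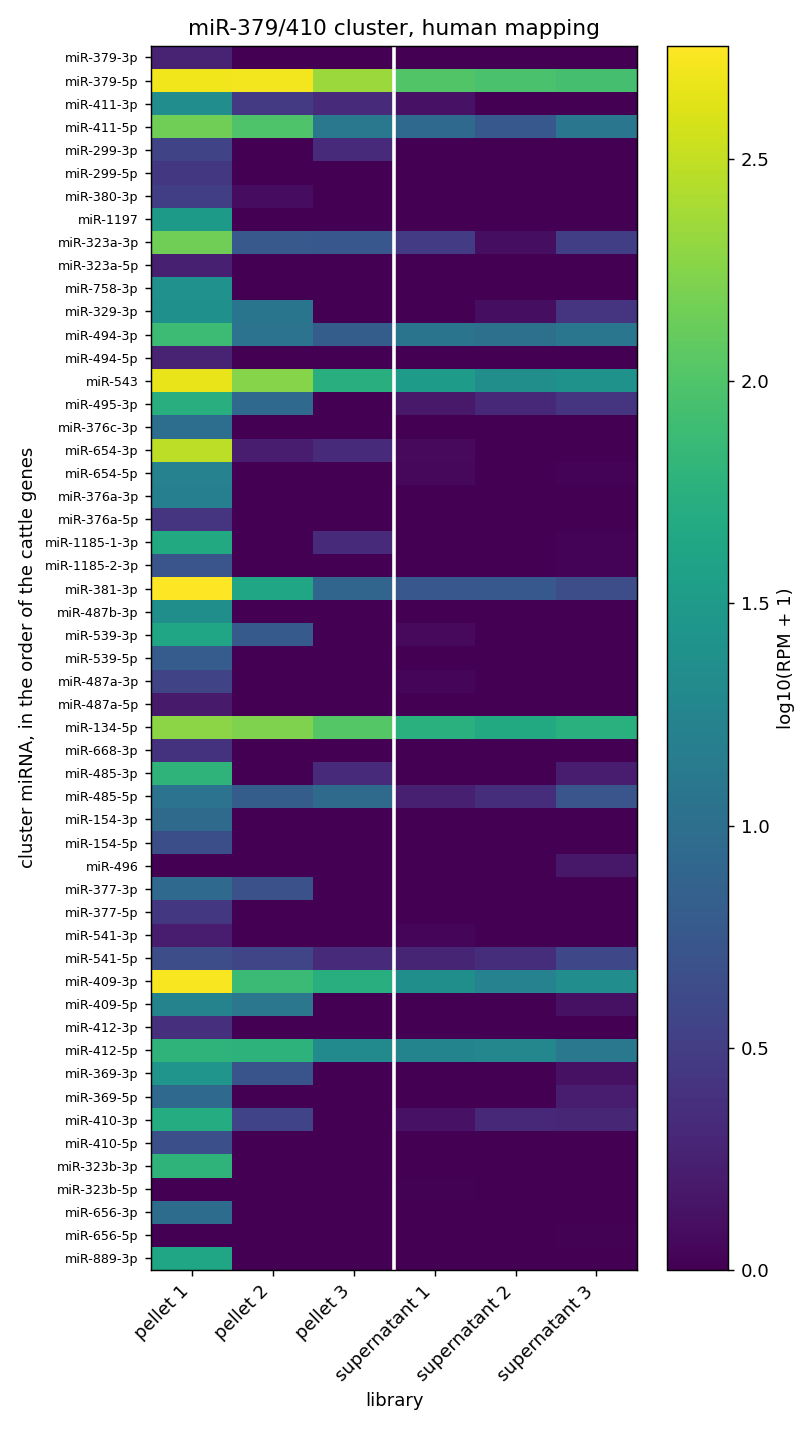
Level of the 53 cluster miRNAs in the human mapping as log10(RPM + 1), with one row per miRNA in the order of the cattle genes (miR-889-3p, without such a gene, last) and one column per library. Pellet 1 has 50 members above 0, while the other libraries have between 14 and 23.

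Members were seen far more widely in pellet 1 than elsewhere. A value above 0 was listed for 50 of 53 members (94.3%) in pellet 1, for 21 in pellet 2 and for 16 in pellet 3. The supernatants had 20, 14 and 23. Among the 449 other miRNA names 75.9% were above 0 in pellet 1 and 39.9% to 51.4% in the other libraries. The highest of the 6 values was that of pellet 1 for 49 members (92.5%) and for 221 of the other names (49.2%). In 21 members (39.6%) pellet 1 was the only library above 0, as it was for 83 other names (18.5%). These shares describe the libraries and were not tested.

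Depth bears on this and can be read directly. At its pellet 1 level, a member of at least 1.91 RPM would give 3 reads or more in pellet 2, and 40 members were at or over that level. Of these 19 (47.5%) were at 0 in pellet 2, against 74 of 211 other names (35.1%). For pellet 3, where 3 reads are 3.46 RPM, 22 of 36 members (61.1%) were at 0, against 28 of 168 other names (16.7%). For the supernatants 3 reads are worth 0.974 RPM at most. There 20 of 45 members (44.4%) were at 0 in all 3, against 73 of 254 other names (28.7%). Among names of the same locus upstream of the cluster, 5 of 12 (41.7%) were at 0 in pellet 2. In pellet 3 it was 4 of 12 (33.3%), and in all supernatants 3 of 12 (25%). Names entered by their level in pellet 1, so these shares describe the libraries and test nothing.

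Some members stood far higher in pellet 1 than in any other library. miR-654-3p stood at 302 RPM in pellet 1, 0.637 RPM in pellet 2, 1.15 RPM in pellet 3, 0.186 RPM in supernatant 1 and 0 in supernatants 2 and 3. Those are a single read each in pellets 2 and 3, where the pellet 1 level would have given 473 and 262 reads. miR-323b-3p stood at 60.8 RPM in pellet 1 and at 0 in the other 5 libraries, at least 31.8-fold higher than in pellet 2 and at least 17.6-fold higher than in pellet 3, against a floor of 3 counts per library. miR-889-3p, at 41.7 RPM in pellet 1 and 0 elsewhere, was at least 21.8-fold higher than in pellet 2. Such floors cover counting error only.

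miR-485-3p stood at 61.4 RPM in pellet 1, 1.15 RPM in pellet 3, 0.649 RPM in supernatant 3 and 0 in the other libraries. miR-1185-1-3p stood at 46.7 RPM in pellet 1, 1.15 RPM in pellet 3, 0.0618 RPM in supernatant 3 and 0 elsewhere. miR-539-3p reached 41.0 RPM in pellet 1 and 5.10 RPM in pellet 2, with 0.186 RPM in supernatant 1 and 0 in the rest. On the mouse genome, however, miR-539-3p held 2.32 RPM in pellet 1 and 0 elsewhere. Values under 1 read, as in miR-1185-1-3p, can come from reads shared out between names. With miR-654-3p and miR-323b-3p these are the 5 most abundant of the 38 members that did not reach 1 RPM in at least 3 libraries and were not tested. Those 38 made up 21.7% of the cluster sum in pellet 1 and at most 2.13% in any other library, and 13 of them were at 10 RPM or more in pellet 1.

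**Figure D2:**
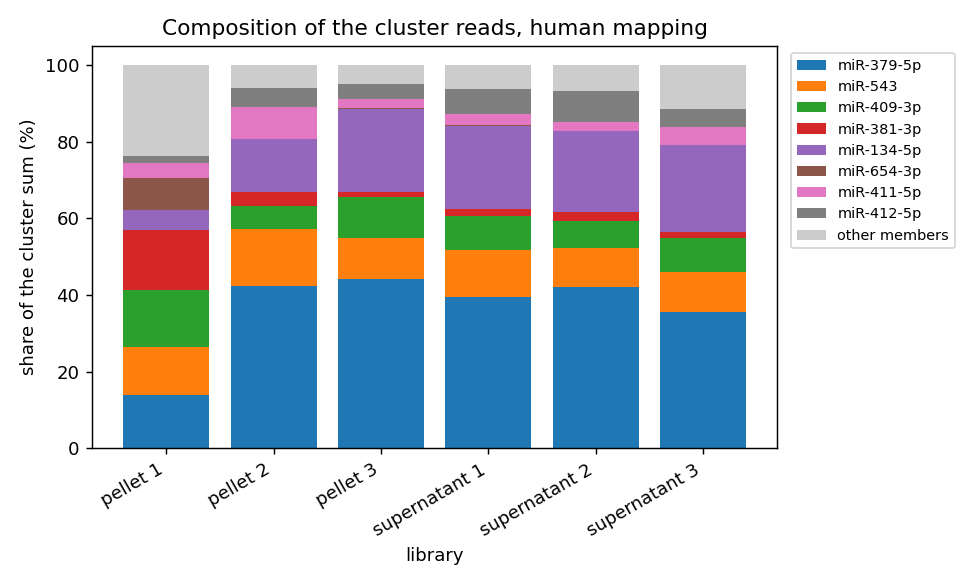
Share of the summed cluster level held by each of the 8 most abundant members and by all other members, in percent, for each library of the human mapping. miR-379-5p holds 35.6% to 44.2% in 5 libraries and less in pellet 1, where miR-381-3p leads at 15.8%.

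miR-379-5p led the cluster in 5 libraries, but not in pellet 1. This miRNA of the first hairpin held 42.3% of the cluster sum in pellet 2, 44.2% in pellet 3 and 39.4%, 42.0% and 35.6% in the supernatants, and 13.8% in pellet 1. The 3 most abundant members held 68.8% to 76.4% in those 5 libraries, and 44.3% in pellet 1. To reach 90% of the sum took 16 members in pellet 1 and 5 to 7 in any other library. In pellet 1 the leading member was miR-381-3p at 15.8%, followed by miR-409-3p and miR-379-5p. The other libraries were not alike in every member. miR-494-3p held 0.853% and 1.14% in pellets 2 and 3 and 4.07% to 4.57% in the supernatants. miR-134-5p held 13.9% in pellet 2, below the 21.3% to 22.9% of pellet 3 and the supernatants, and miR-411-5p held 8.29% in pellet 2, above the 2.19% to 4.57% of those libraries.

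Ratios between members of one library are free of the scaling to mapped reads. For each 100 RPM of miR-379-5p there were 115 RPM of miR-381-3p in pellet 1, 8.25 RPM in pellet 2, 3.21 RPM in pellet 3 and 4.60, 5.21 and 4.01 RPM in the supernatants. On the same base miR-409-3p stood at 107 RPM in pellet 1, 14.6 RPM in pellet 2, 24.2 RPM in pellet 3 and 22.5, 17.3 and 25.2 RPM in the supernatants. For miR-134-5p the figures were 37.6, 33.0 and 48.7 RPM in pellets and 55.4, 50.7 and 64.3 RPM in the supernatants. On this base miR-134-5p was lower in every pellet than in every supernatant, while for miR-381-3p and miR-409-3p pellet 1 alone was far from the rest. Other members had other patterns. miR-494-3p stood at 15.3, 2.02 and 2.58 RPM in the pellets and 10.3, 10.4 and 12.8 RPM in the supernatants, so pellets 2 and 3 lay below every supernatant. For miR-411-5p the figures were 28.8, 19.6 and 5.33 RPM in the pellets and 7.73, 5.22 and 12.8 RPM in the supernatants. Pellets 1 and 2 lay above the supernatants there and pellet 3 within their range.

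Within the cluster, pellet 1 differed from the other libraries mainly in its 3p arms, a grouping made after the values were seen. The 3p arms held 69.2% of the arm-named cluster reads in pellet 1, 16.5% in pellet 2, 17.2% in pellet 3 and 18.6%, 16.7% and 20.2% in the supernatants. Counting miR-543, which the mouse table names as a 3p arm, gave 73.2% in pellet 1 and 25.1% to 28.9% in the others, and leaving out miR-381-3p and miR-409-3p as well gave 61.2% in pellet 1 and 15.8% to 21.3% elsewhere. Among the other miRNA names apart from miR-122-5p the 3p share was 44.0% in pellet 1 and 32.2% to 45.8% in the others.

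Ratios of pellet 1 to pellet 2 for members above 3 reads in both differed between the arms as well. The 10 members of the 3p arm had a median ratio of 7.31, from 2.04 for miR-377-3p to 29.5 for miR-323a-3p. The 7 members of the 5p arm had a median of 1.23, from 0.981 for miR-379-5p to 1.89 for miR-485-5p. Members at 0 in pellet 2 allow lower bounds alone, against the floor of 3 counts there, and with these the arms overlapped. The bounds were at least 1.88-fold to at least 8.16-fold over 5 members of the 5p arm, the highest for miR-654-5p, and at least 1.38-fold to at least 32.1-fold over 13 of the 3p arm. On the mouse genome the 3p ratios ran from 0.412, for miR-299b-3p, to 27.9 over 12 members, and the 5p ratios from 0.949 to 1.37 over 5. Among other names the medians were 1.33 over 47 3p arms and 0.915 over 64 5p arms. Upstream of the cluster in the same locus the arms overlapped. The 3p ratios there ran from 1.28 for miR-433-3p to 6.55 for miR-136-3p. The 5p ratios were 0.931 for miR-432-5p and 2.70 for miR-493-5p. Lower bounds there reached at least 14.7-fold for miR-431-5p and at least 249-fold for miR-370-3p. Against pellet 3 the ratios were 10.2 to 81.9 over 4 members of the 3p arm and 1.27 to 12.4 over 5 of the 5p arm. These ratios compare single libraries and carry no replicate check.

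**Figure D3:**
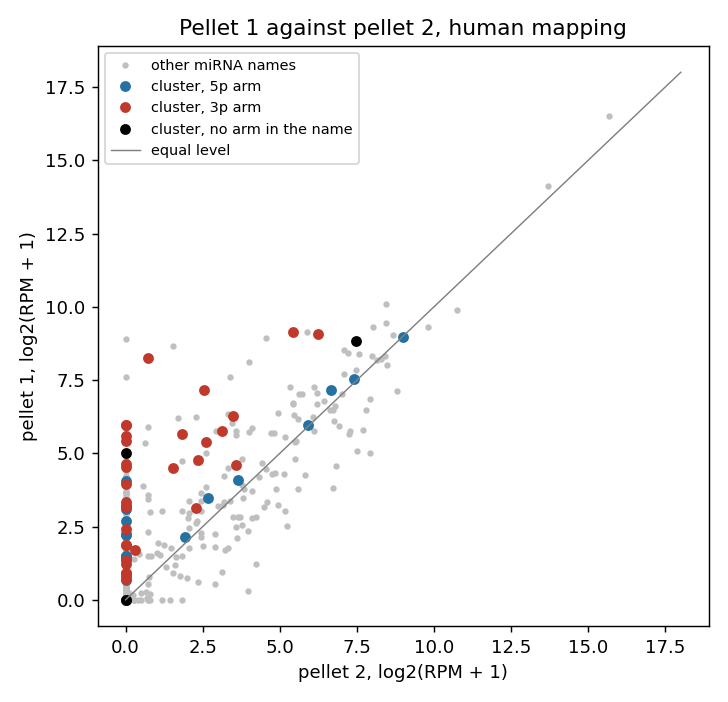
Level of each miRNA name in pellet 1 (vertical) against pellet 2 (horizontal) as log2(RPM + 1) in the human mapping, with cluster members coloured by arm and other names in grey. The 5p arms above 3 reads in both pellets follow the line of equal level (ratios 0.981 to 1.89), while the 3p arms lie above it (ratios 2.04 to 29.5).

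Both arms of a hairpin were above 0 in pellet 1 for 17 hairpins, of which 13 gave more of the 3p and 4 more of the 5p arm. The 4 were miR-379, miR-411, miR-412 and miR-541. On the human genome the stronger arm exceeded the weaker by 1.5 times in miR-299 to 550 times in miR-379, with a median of 7.58. The low ratio of miR-299 changed with the genome, to 6.51 for miR-299a and 12.2 for miR-299b on the mouse genome. On the human genome miR-379 gave 496 RPM of the 5p and 0.901 RPM of the 3p arm. miR-409 gave 532 RPM of the 3p and 16.2 RPM of the 5p arm, and miR-323a gave 142 and 0.751 RPM. Across fractions a change of the arm ratio could be tested for 16 hairpins, and 12.5% of them passed as higher in the pellets and 6.25% as lower. miR-411, the single member among them, had a log2 difference of 0.51 (standard error 0.88, adjusted p = 0.604 from limma), so 0 of 1 members passed (0 at an unadjusted p under 0.05).

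The fractions were then set against each other with limma on a log2(RPM + 1) scale, on which rare miRNAs appear to change less than they do, and p-values were adjusted by Benjamini-Hochberg over all 153 tested names. Among 15 tested members, 5 passed as higher in pellets (33.3%), 0 passed as lower (0 also at an unadjusted p under 0.05) and 10 passed in neither direction. Over all tested names 47.7% were higher. The fractions did not overlap in 10 of the 15 (66.7%), beside 66.7% over all tested names. The median log2 fold change was 2.02 over the members and 2.05 over all tested names. A member seen in the pellets alone had to differ in order to be tested, so these counts are no support for a direction. Without pellet 1, 4 of 12 tested members passed beside 50 of 126 names, with a median of 1.39 over the members and 1.78 over all. Leaving out another library moved the members and all names together. Without supernatant 1 or 2, 0 members passed, beside 0 of 148 and 0 of 151 names (67 and 61 at an unadjusted p under 0.05 by limma). Without supernatant 3 miR-379-5p passed, beside 32 names over all, and without pellet 3, 11 members passed, beside 93 of 131. Scaled to the miRNA reads other than miR-122-5p and miR-1246, 0 members passed, beside 6 of 153 names, 5 of these as lower, and the median over all names became 0.28.

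**Figure D4:**
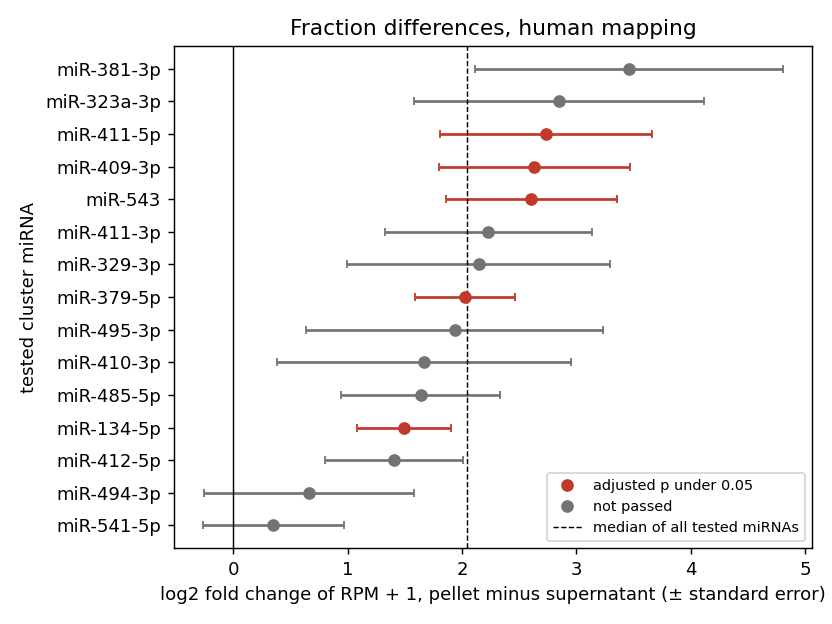
Log2 fold change of RPM + 1 from supernatant to pellet for the 15 tested cluster miRNAs, as points with standard errors from limma, red where the adjusted p is under 0.05. The dashed line is the median of all 153 tested miRNAs, 2.05, and the 5 members that passed lie between 1.49 and 2.74, with miR-134-5p and miR-379-5p turning below 0 under a scaling to other miRNAs.

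The most abundant member, miR-379-5p, stood at 496, 505 and 216 RPM in pellets 1 to 3 and at 100.2, 91.1 and 86.0 RPM in supernatants 1 to 3. Every pellet was above every supernatant, and pellets 1 and 2 were alike where most members were not. The means were 406 ± 164 and 92.4 ± 7.15 RPM (SD, n = 3 each), and the log2 fold change was 2.02 ± 0.44 (SE by limma, adjusted p = 0.0138). The exact permutation p, two-sided, was 0.10, the smallest that 20 relabellings allow. It ranked from the 5th to the 12th place among all miRNAs of a library.

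miR-134-5p, which in rat neurons limits the size of dendritic spines by repressing the kinase Limk1, stood at 186, 167 and 105 RPM in pellets 1 to 3 and at 55.4, 46.2 and 55.3 RPM in supernatants 1 to 3. It had the narrowest spread among the abundant members, without overlap. Its log2 fold change was 1.49 ± 0.41 (SE by limma, adjusted p = 0.0241). Against the miRNA reads other than miR-122-5p and miR-1246 it was -0.65 (adjusted p = 0.353 from limma). miR-412-5p stood at 61.1, 59.3 and 19.6 RPM in pellets 1 to 3 and at 16.4, 17.8 and 11.7 RPM in supernatants 1 to 3. It did not pass, although the fractions did not overlap (limma, log2 difference 1.41 ± 0.60 SE, adjusted p = 0.0738).

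miR-543 stood at 459, 178 and 51.9 RPM in pellets 1 to 3 and at 31.3, 21.9 and 25.0 RPM in supernatants 1 to 3. The pellets ran from high to low over a range wider than their distance to the supernatants. Its log2 fold change was 2.61 ± 0.75 (SE by limma, adjusted p = 0.0269). miR-409-3p stood at 532, 73.9 and 52.3 RPM in pellets 1 to 3 and at 22.5, 15.7 and 21.7 RPM in supernatants 1 to 3. Its pellet mean was 63.1 RPM without pellet 1, which stood far above the rest, and the fractions did not overlap (limma, log2 difference 2.63 ± 0.83 SE, adjusted p = 0.0354).

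miR-411-5p, from the second hairpin, stood at 143, 99.0 and 11.5 RPM in pellets 1 to 3 and at 7.74, 4.76 and 11.03 RPM in supernatants 1 to 3. Pellet 3 was barely above supernatant 3, by less than 1 read of pellet 3. It passed with a log2 fold change of 2.74 ± 0.93 (SE by limma, adjusted p = 0.0417). It passed without pellet 3, but not when any other single library was left out. Its 3p arm stood at 21.7, 1.91 and 1.15 RPM in pellets 1 to 3, and at 0.372, 0 and 0 RPM in supernatants 1 to 3.

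miR-381-3p stood at 568, 41.7 and 6.94 RPM in pellets 1 to 3 and at 4.61, 4.75 and 3.45 RPM in supernatants 1 to 3. It had the highest level of any member in pellet 1 and the highest log2 fold change of the tested members, 3.46, and did not pass (standard error 1.35, adjusted p = 0.0575 from limma). Pellet 1 was 81.9 times as high as pellet 3. Without pellet 1 its pellet mean was 24.3 RPM. miR-323a-3p stood at 142, 4.83 and 4.61 RPM in pellets 1 to 3 and at 2.05, 0.261 and 2.27 RPM in supernatants 1 to 3 (limma, log2 difference 2.85, adjusted p = 0.0819). The pellet 3 value is 4 reads.

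The members with the least evidence of a change were miR-541-5p, miR-494-3p and miR-410-3p. miR-541-5p stood at 3.44, 2.78 and 1.15 RPM in pellets 1 to 3 and at 0.931, 1.31 and 2.92 RPM in supernatants 1 to 3, with overlap (limma, log2 difference 0.35, adjusted p = 0.615). miR-494-3p stood at 75.6, 10.2 and 5.57 RPM in pellets 1 to 3 and at 10.4, 9.49 and 11.03 RPM in supernatants 1 to 3. Pellet 2 lay within the range of the supernatants and pellet 3 below it, and its log2 fold change of 0.66 became -0.39 without pellet 1 (adjusted p = 0.535 and 0.667 from limma). miR-410-3p stood at 49.2, 2.55 and 0 RPM in pellets 1 to 3 and at 0.372, 1.04 and 0.974 RPM in supernatants 1 to 3 (limma, log2 difference 1.67, adjusted p = 0.283). The value at 0 in pellet 3 allows up to 3.46 RPM.

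**Figure D5:**
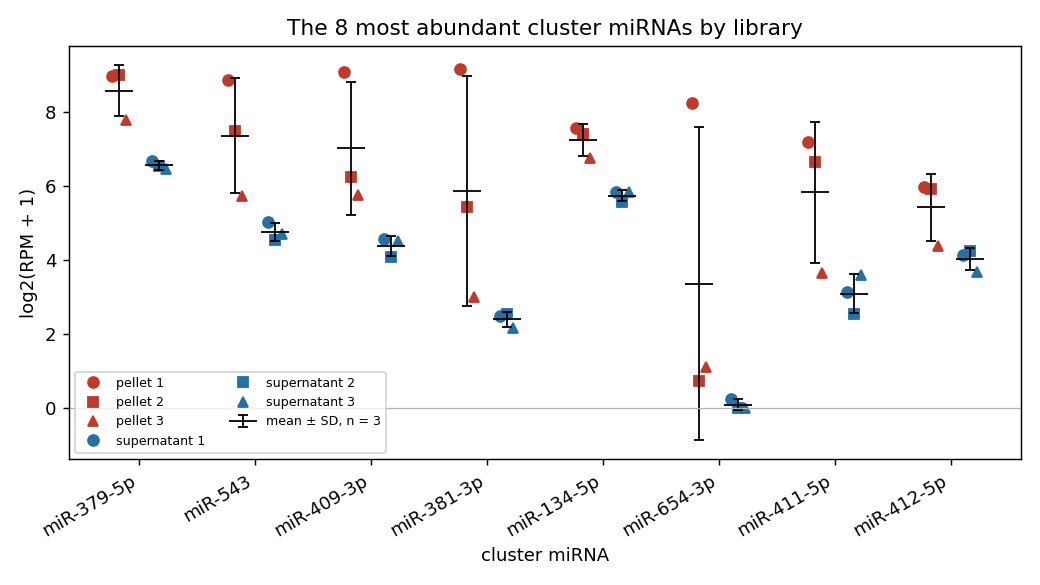
Level of the 8 most abundant cluster miRNAs in each library as log2(RPM + 1), pellets in red and supernatants in blue with one symbol per replicate number, and the mean ± SD of the logged values (n = 3). Pellets 1 and 2 nearly coincide for miR-379-5p, miR-134-5p and miR-412-5p, while pellet 1 stands far above them for miR-381-3p and miR-654-3p.

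In the mouse mapping, which annotates the same reads on another genome, 7 of 15 tested members were higher in the pellets (46.7%) and 0 lower, beside 55.9% higher over the 143 tested names. The fractions did not overlap in 11 of them, beside 72.0% over all. The names that passed were miR-379-5p, miR-134-5p, miR-543-3p, miR-409-3p, miR-411-5p, miR-299a-3p and miR-299b-3p. Of the 10 members tested under one name in both mappings, 0 had a pellet to supernatant difference that changed with the genome (0 of 10 at an unadjusted p under 0.05 by limma, and 0.0% of all 111 names passed). For miR-543 nearly the same reads were counted, 3060 on the human and 3059 on the mouse genome in pellet 1, 279 on both in pellet 2, and 168 on both in supernatant 1.

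Some members that were not tested under one name in both mappings differed between the genomes. miR-539-3p stood at 41.0 and 5.10 RPM in pellets 1 and 2 on the human genome, and at 2.32 and 0 RPM on the mouse genome. In pellet 1 miR-541-5p stood at 3.44 RPM on the human and 0.0114 RPM on the mouse genome. The 3p arm of miR-299 was higher on the mouse genome. On the mouse genome miR-299b-3p stood at 19.9, 48.3 and 32.5 RPM in pellets 1 to 3 and at 14.6, 4.63 and 6.41 RPM in supernatants 1 to 3. miR-299a-3p lay at 10.6, 24.2 and 16.2 RPM in pellets 1 to 3 and at 7.31, 2.31 and 3.21 RPM in supernatants 1 to 3. The former was 2.0 times the latter in 5 libraries and 1.87 times in pellet 1, so these names were not separate measurements. Both passed (log2 fold changes 1.91 and 1.82, adjusted p = 0.0416 and 0.0498 from limma). The human name miR-299-3p held 2.70 RPM in pellet 1, 1.15 RPM in pellet 3 and 0 in the other libraries, and unlike most members the mouse names were lowest among the pellets in pellet 1.

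Reads of miR-381-3p and its close relative miR-300-3p, a name not listed on the human genome, may likewise be shared. On the mouse genome miR-381-3p stood at 425, 20.4 and 3.14 RPM in pellets and miR-300-3p at 96.7, 42.2 and 2.62 RPM. Their sum was 522, 62.6 and 5.76 RPM, beside 568, 41.7 and 6.94 RPM for miR-381-3p on the human genome. In RPM the sum was the lower in pellets 1 and 3 and the higher in pellet 2. In supernatants 1 to 3 it was the higher, at 6.87, 5.13 and 6.70 RPM beside 4.61, 4.75 and 3.45 RPM. RPM of the human and mouse genomes are not on one base, since 1.10, 1.04 and 1.10 times as many reads mapped to the mouse genome in pellets 1 to 3. A gap as small as that of pellet 1 lies within this difference, and single values of these names are uncertain.

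Other miRNAs of the same locus were listed as well. Of 13 names from hairpins upstream of the cluster, on the side of the RTL1 antisense transcript, 5 were tested. Of these 2 passed as higher in pellets (40%) and 0 as lower, beside 47.7% higher over all tested names. Their median log2 difference was 1.75, beside 2.05 over all tested names. miR-127-3p, which in mouse placenta represses the retrotransposon-derived gene Rtl1, had a mean of 375 ± 315 RPM in pellets and 32.3 ± 10.3 RPM in supernatants (SD, n = 3 each, adjusted p = 0.0225 from limma). miR-432-5p had 266 ± 113 and 82.0 ± 26.9 RPM (adjusted p = 0.0318 from limma). In 12 of the 13 upstream names (92.3%) the highest value was that of pellet 1, beside 53.8% of all names. Within the span of the cluster but outside the rule, miR-382-5p had 46.4 ± 30.8 RPM in pellets and 7.83 ± 3.24 RPM in supernatants (SD, n = 3 each), and passed by limma at an adjusted p of 0.0337.

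Markers of cell types that could release RNA into serum are given beside the 47.7% of all 153 tested names that passed as higher in the pellets. Red blood cell miRNAs summed to 167 to 512 RPM in pellets and 11.9 to 20.9 RPM in the supernatants, with 2 of 3 tested names higher of 4 listed and miR-16-2-3p at 0 in every supernatant. Liver miRNAs summed to 49661 to 92899 RPM in pellets and 30991 to 40809 RPM in the supernatants, with 1 of 3 higher. Muscle miRNAs summed to 149.6 to 179 RPM in pellets and 49.1 to 65.1 RPM in the supernatants, with 1 of 5 tested names higher of 6 listed. Brain miRNAs summed to 143.8 to 708 RPM in pellets and 16.4 to 61.6 RPM in the supernatants, with 2 of 3 higher. Pellet 1, where the cluster was highest, had the lowest sum of the pellets for red blood cell and muscle miRNAs and the highest for liver miRNAs. Nearly all of that liver sum was miR-122-5p. miR-192-5p (52.7, 67.7 and 52.1 RPM in pellets 1 to 3) and miR-194-5p (7.99, 21.3 and 2.31 RPM) were highest in pellet 2. Of the muscle and red blood cell names, miR-206, miR-133a-3p and miR-16-2-3p were highest in pellet 1, against their sums, and the others in pellet 2 or 3. The brain sum of pellet 1 was 598 RPM, below the 708 RPM of pellet 3. The brain sum of pellet 3 was mostly miR-7-5p, at 274, 14.9 and 646 RPM in the pellets. The other brain miRNAs were highest in pellet 1, with miR-9-5p at 194.4, 0 and 28.8 RPM and miR-128-3p at 129.6, 128.9 and 33.4 RPM, and so was the brain sum on the mouse genome, taken without miR-7a-5p, a name the list did not hold, at 294, 126 and 57.6 RPM. Their part in the levels of the cluster was not tested.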

How the data were processed

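Small RNA libraries (inserts of 15 to 65 nt, 50 nt reads, from 60 ng of kinase-treated RNA) of 3 pellets and 3 supernatants of FBS were used. The authors deposited RPM, reads per 1000000 mapped to hg19 by exceRpt or to mm10, for which the pipeline was not given in the sources read. Tables of RNA classes were not used. Within 0.02 reads 35.6% to 59.6% of the miRNA values above 0 on hg19 were whole reads, so no count model was fitted. Names that reached 1 RPM in 3 or more of the 6 libraries entered a two-sided test on log2(RPM + 1) with limma 3.58.1 (R 4.3.3), which used a variance trend, no covariate and a threshold of 0.05 on the adjusted p. The fits were tested on simulated data. Arm ratios and differences between mappings were fitted likewise, without the trend. Figures were drawn in Python 3.11.15 with matplotlib 3.10.9. The members, lists and tests were chosen with earlier results of these data known. Members with per-library values are the 8 most abundant, those that passed without overlap, the 3 with the largest adjusted p, those that differed between mappings and the 5 most abundant untested ones; others were named after their values were seen. Alternatives were pseudocounts of 0.1 and 10 RPM, filters, scalings, no trend, a block for the replicate number and the omission of each library in turn. No mature sequences were used here.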

Additional observations from a re-analysis of the deposited data

How the results depend on the processing

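On the human genome the 5 members that passed became 2 with a pseudocount of 10 RPM, 0 with no filter, 3 when scaled to all miRNA reads, 0 when scaled to miRNA reads other than miR-122-5p and miR-1246, 0 with median-of-ratios scaling, and 0 to 11 when each library was left out in turn. The calls over all names moved alongside, from 73 of 153 to 38 of 153, 11 of 502, 38 of 153, 6 of 153, 6 of 153 and 0 to 93. On the mouse genome the 7 became 2, 0, 0, 0, 0 and 0 to 11 under the same alternatives, and the calls over all names went from 80 of 143 to 34 of 143, 10 of 395, 9 of 143, 8 of 143, 8 of 143 and 0 to 87. With the replicate number as a block 8 passed on the human genome (78 of 153 names) and 7 on the mouse genome (73 of 143), but they were not the same members. miR-134-5p did not pass under the block (adjusted p = 0.0649 on the human and 0.0702 on the mouse genome by limma), nor did miR-299a-3p and miR-299b-3p on the mouse genome. miR-381-3p (adjusted p = 0.00363 by limma on the human genome), miR-411-3p and miR-323a-3p, named miR-323-3p on the mouse genome, passed on both, and miR-329-3p on the human one. The labels do not say that a number marks a shared serum sample, and the deviations of same-numbered libraries had r = -0.19, 0.27 and 0.26, so whether the numbers pair the libraries is not known and the block was not used elsewhere. For the arm ratio 0 became 1, miR-411, with a pseudocount of 10 RPM, and leaving out a pellet or a filter of 10 RPM gave no value. The cause of these changes was not tested.

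The median log2 fold change over all tested human names was 2.05, and 1.47, 0.28 and 0.39 under the 3 scalings in the order above, so directions here are relative to the scaling. With the reads other than miR-122-5p and miR-1246 and with median-of-ratios, in this order, the log2 fold change turned below 0 on the human genome for miR-379-5p (-0.13 and -0.010), miR-134-5p (-0.65 and -0.53), miR-412-5p (-0.68 and -0.56), miR-494-3p (-1.35 and -1.23) and miR-541-5p (-1.07 and -0.99, and -0.090 with all miRNA reads). On the mouse genome it did so for miR-379-5p (-0.076 and -0.070), miR-134-5p (-0.58 and -0.57), miR-412-5p (-0.59 and -0.59), miR-494-3p (-1.24 and -1.22, and -0.25 with all miRNA reads), miR-299b-3p (-0.082 and -0.085), miR-299a-3p (-0.043 and -0.052) and miR-485-5p (-0.30 and -0.27). Leaving out each library moved miR-494-3p between -0.39 and 1.38 on the human and between -0.26 and 1.42 on the mouse genome, the lower values without pellet 1. The mean share of miRNA reads went from 1.70% to 12.2% in pellets and from 0.431% to 9.24% in supernatants without miR-122-5p and miR-1246, and to 0.494% in supernatants on the mouse genome.

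Depth limits pellet 3 most, where 3 reads are worth 3.46 RPM, and a member listed at 0 there may have any level up to that.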

Other observations

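The 3 members not seen in pellet 1 were miR-496, miR-656-5p and miR-323b-5p. miR-496 stood at 0.487 RPM in supernatant 3, miR-656-5p at 0.0406 RPM in supernatant 3 and miR-323b-5p at 0.0372 RPM in supernatant 1, with 0 in every other library. The last pair are below 1 read, and all 3 are under the 0.974 and 0.558 RPM that 3 reads are worth in these libraries.

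Upstream of the cluster, miR-370-3p showed the pattern of miR-654-3p, with 476 RPM in pellet 1, 0 in pellet 2, 1.15 RPM in pellet 3, 0.558 RPM in supernatant 1 and 0 in the other supernatants. It was at least 249-fold higher in pellet 1 than in pellet 2, against a floor of 3 counts that covers counting error only, and was chosen after its values were seen.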
